A study of Mus musculus with 31 samples.

Results

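The subunits of NF-κB and the genes that restrain it were followed in the hippocampus of a mouse model of T cell-mediated limbic encephalitis. The 10 members, of 15648 genes in the count table, were taken by symbol and each matched a single row. They were the 5 subunits Nfkb1, Rel, Rela, Nfkb2 and Relb, and 5 inhibitors and feedback genes, Nfkbia, Nfkbib, Nfkbie, Tnfaip3 and Bcl3. Bulk RNA-seq of the left hippocampus was available from 31 adult mice, each sequenced as its own library. All mice were OT-I/Rag1-/- (OT-I/Rag-/- in the labels), that is, their T cells carry a CD8+ receptor against ovalbumin (OVA) and they lack other mature T cells and B cells. Mice of the rAAV-OVA group had received rAAV-hSyn-OVA-mCherry into the CA1 region of both hemispheres, and mice of the rAAV-control group rAAV-hSyn-mCherry. The hSyn promoter drives the transgene in neurons, so OVA was a neuronal antigen in this model and the mCherry protein was shared by both groups. Hippocampi came from days 2, 5, 8 and 28 after injection, with 4 mice per group at 2, 5 and 28 days, and 4 rAAV-OVA and 3 rAAV-control mice at 8 days.

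NF-κB proteins are dimers of 5 subunits that wait in the cytoplasm of resting cells. In the canonical branch, signals from TNF, interleukin-1 or Toll-like receptors activate the IκB kinase complex, the IκB proteins are degraded, and dimers of RelA or c-Rel with p50 (the processed product of Nfkb1) enter the nucleus. In the noncanonical branch, receptors such as CD40 and the lymphotoxin β receptor stabilise the kinase NIK (Map3k14), which leads to processing of p100 (Nfkb2) to p52 and to nuclear p52-RelB dimers. Several subunits and inhibitors are themselves known as NF-κB target genes, which gives the pathway its feedback. In brain tissue the pathway is best known from activated microglia, astrocytes and infiltrating leukocytes.

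Promoter sequences are shown because several members are known targets of their own pathway and moved together here, and the stretches that match the κB consensus, the 10 bases NF-κB dimers are known to bind, can be seen in them. The windows are the 250 bases before the RefSeq start of a gene on GRCm38.p6, 5′ to 3′ on the strand of the gene, and capitals mark every base that lies in a κB consensus match on either strand. RefSeq windows were found for 8 of the 10 members, and those of Nfkb1 and Relb are named only. The first Nfkb2 window (plus strand, chr19:46304487-46304736), the Rel window (minus strand, chr11:23770970-23771219), the Nfkbia window (minus strand, chr12:55492648-55492897) and the Nfkbib window (minus strand, chr7:28766645-28766894) read as follows.
Nfkb2: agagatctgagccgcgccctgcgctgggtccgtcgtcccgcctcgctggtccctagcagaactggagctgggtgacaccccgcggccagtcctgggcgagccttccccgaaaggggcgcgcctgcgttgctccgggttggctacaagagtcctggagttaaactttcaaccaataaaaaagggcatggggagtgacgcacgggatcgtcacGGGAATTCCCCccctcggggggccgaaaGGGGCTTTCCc
Rel: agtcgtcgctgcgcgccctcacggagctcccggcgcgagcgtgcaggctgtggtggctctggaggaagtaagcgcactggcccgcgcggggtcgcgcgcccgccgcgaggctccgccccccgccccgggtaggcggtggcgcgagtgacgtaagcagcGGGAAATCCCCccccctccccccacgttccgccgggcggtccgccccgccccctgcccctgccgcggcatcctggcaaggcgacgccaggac
Nfkbia: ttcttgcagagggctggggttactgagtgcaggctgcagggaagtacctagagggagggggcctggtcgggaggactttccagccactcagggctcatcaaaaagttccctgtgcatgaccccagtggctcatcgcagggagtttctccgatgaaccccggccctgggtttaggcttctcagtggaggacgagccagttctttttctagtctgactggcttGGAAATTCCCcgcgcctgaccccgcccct
Nfkbib: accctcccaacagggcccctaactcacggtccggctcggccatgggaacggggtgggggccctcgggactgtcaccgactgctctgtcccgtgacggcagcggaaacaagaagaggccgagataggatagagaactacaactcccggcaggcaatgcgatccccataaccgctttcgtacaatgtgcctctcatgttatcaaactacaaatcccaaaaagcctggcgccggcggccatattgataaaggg
The Nfkbib window is shown as one with no match. For Nfkbie (plus strand) and Tnfaip3 (minus strand) only a match with up to 10 bases on either side is given, and the Tnfaip3 stretch ends where its window ends.
Nfkbie: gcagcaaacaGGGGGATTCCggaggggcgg
Tnfaip3: aatttccatcGGAAATCCCCct
A match was found in 7 of the 11 windows of members and in 5 of the 8 members with a window (Nfkb2, Rel, Nfkbia, Nfkbie and Tnfaip3). Rela, Bcl3 and Nfkbib had none. Of all 32817 RefSeq windows of this length, 3.9% held a match. Matches on both strands were counted, overlapping ones included. A match describes letters in a window, and no binding was measured.

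Expression is given as CPM (counts divided by the library size and scaled to a common total) after TMM scaling, which corrects the library size for composition, with mean ± SD for a group. Library totals lay between 19046977 and 57407902 counts (median 27024978), and the median count of a member over mice ran from 90 for Bcl3 to 925 for Nfkbia. The fitted Log2FC is rAAV-OVA minus rAAV-control from an edgeR quasi-likelihood model with the 8 groups and 2 surrogate variables, which capture variation among libraries beyond the groups. Such variation can include differences in the response between mice of a group. A gene passed the test when its FDR (Benjamini-Hochberg, over all genes) was 0.05 or less and its Log2FC at least 0.66 in size. The 5 and 8 day mice were all of batch 1, whereas every group of 2 or 28 days was made of 2 mice from batch 1 and 2 from batch 2. Nfkb2 shares 18.1% of its exonic bases with genes on the opposite strand (Psd among them), Nfkbib 16.4% (Sirt2 among them) and Bcl3 6.51%. Salmon was left to detect the library type, and whether the libraries kept strand is not given in the sources used here. In libraries without strand, reads from these stretches could not be told apart by it.

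A pair of mice stood apart from their groups. The rAAV-control mouse D720 at 8 days had the highest level of its group in 10 of 10 members, against 35.7% of all genes. Its summed T cell markers stood at 39.6 CPM against 4.97 and 4.14 in the other 8 day controls, and its monocyte markers at 123 against 6.27 and 15.1. The rAAV-OVA mouse D844 at 28 days was the lowest of its group in 9 of 10 members, against a share of 33% of all genes. Its T cell markers reached 35.8 CPM, against 309.5 to 722.8 in the other rAAV-OVA mice of that day, and its monocyte markers 14.6 against 215 to 477. The first surrogate variable stood at −0.293 in D720, against 0.122 and −0.0972 in the other 8 day controls. In D844 it was 0.167, against −0.247 to −0.131 in the other rAAV-OVA mice of that day. This order did not hold at 5 days. There D787, lowest in 7 of 10 members, had −0.193, and D786, highest in 6, had −0.0778. Whether this variable took up part of the response was not tested. The levels and tests below are given with all mice, and values without D720 or D844 follow for some members and for the counts.

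Markers of several immune and other cell types moved with the groups, whereas the sums of the 6 astrocyte markers overlapped at 5, 8 and 28 days. These sums were 6197 to 7329 CPM in rAAV-OVA and 5890 to 7355 in rAAV-control mice at 5 days. The Log2FC of single astrocyte genes then ran from −0.91 to 0.85 and 1 passed lower, while at 28 days 1 passed higher. T cell markers (3 of the 10 listed were in the table, Cd8a, Trbc2 and Lck) summed to 115 to 176 CPM in rAAV-OVA and 1.88 to 5.01 in rAAV-control mice at 5 days, 181 to 589 and 4.14 to 39.6 at 8 days, and 35.8 to 722.8 and 1.51 to 2.54 at 28 days. The 7 monocyte markers ran from 351 to 537 CPM in rAAV-OVA mice at 5 days, against 2.77 to 14.98 in controls. The 7 microglia markers summed to 1118 to 1141 CPM against 493 to 783 at 5 days. Of these genes, 4 passed higher at that day, and 1 was lower in all rAAV-OVA mice than in all controls. At 8 days the sums overlapped, at 1000 to 1466 against 409 to 1242 CPM. Neuron markers were present in every mouse (5 of 5 listed), as were those of hippocampal neurons, and the former summed to 6038 to 7519.9 CPM in rAAV-OVA against 9581 to 11968 in rAAV-control mice at 5 days. At 28 days it was 3356 to 7797 against 9277 to 10547 CPM. Oligodendrocyte markers were at 2868 to 4349 CPM in rAAV-OVA against 4485 to 7766 in rAAV-control mice at 5 days. The 5 endothelium markers summed to 107 to 142 against 147 to 160 CPM at 5 days. At 28 days they summed to 173 to 298 against 122 to 159 CPM. These sums did not overlap either, but at 5 days 2 of the 5 genes had a Log2FC above 0 and 0 passed. At 28 days all 5 were above 0 and 3 passed. Fewer or more cells of a type and less or more RNA per cell cannot be told apart in bulk tissue, and the part of these markers in the results on the members was not tested.

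**Figure D1:**
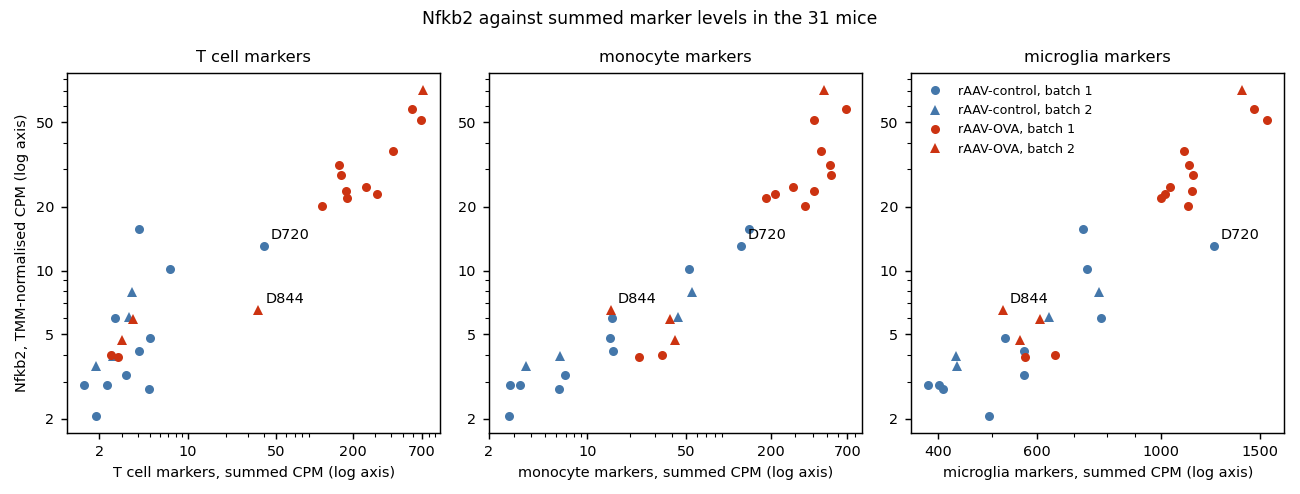
Nfkb2 in TMM-normalised CPM (vertical, log axis) against the summed CPM of T cell, monocyte and microglia markers (horizontal, log axes) in each of the 31 mice, coloured by vector and shaped by batch. The 11 rAAV-OVA mice with the highest T cell markers were those of 5, 8 and 28 days other than D844, and D720 and D844 lay between both clouds on the T cell axis, at 39.6 and 35.8 CPM.

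The canonical subunits came first. Nfkb1 (ENSMUSG00000028163) encodes p105, the precursor of p50. At 5 days the 4 rAAV-OVA mice had 62.2, 58.2, 63.5 and 49.1 CPM and the 4 rAAV-control mice 14.01, 19.7, 19.5 and 22.5 CPM. Every rAAV-OVA mouse was above every control. The fitted change was 2.31-fold, with a Log2FC of 1.21 (SE 0.29, FDR = 0.00313). At 8 days the rAAV-OVA mice had 102, 45.6, 56.6 and 76.0 CPM, and the controls 15.5, 34.02 and 17.2, the middle value being that of D720. The groups did not overlap, and Nfkb1 rose 3.12-fold (Log2FC 1.64, SE 0.30, FDR = 0.000817). At 28 days the values were 92.9, 53.7, 113 and 23.3 CPM in rAAV-OVA mice, the last being that of D844, and 21.4, 17.5, 16.03 and 16.02 in controls. The group means were 70.8 ± 40.2 and 17.7 ± 2.54, the Log2FC was 1.48 (SE 0.30, FDR = 0.000872), and without D844 it was 1.95. Nfkb1 thus passed the test at 3 of 4 days.

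Rel (ENSMUSG00000020275), which encodes c-Rel, the subunit best known from lymphocytes and activated myeloid cells, rose at the same days. Its level at 5 days was 21.2 ± 4.0 CPM in rAAV-OVA and 5.93 ± 0.555 in rAAV-control mice, with ranges of 17.3 to 25.5 and 5.31 to 6.54 that did not touch. The Log2FC was 1.42 at 5 days (FDR = 0.00137), 1.72 at 8 days (FDR = 0.00100) and 1.71 at 28 days (FDR = 0.000590). At 28 days D844 lay at 6.03 CPM inside the control range of 3.43 to 6.27, while the other rAAV-OVA mice had 20.4 CPM or more. Without surrogate variables the Log2FC of Rel at 28 days was 2.30, and without D844 it was 2.32.

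Rela (ENSMUSG00000024927), the main transactivating subunit of the canonical dimer, had the smallest Log2FC of the subunits at 5, 8 and 28 days. The rAAV-OVA mice had 33.97, 29.9, 31.7 and 28.8 CPM at 5 days and the controls 17.5, 20.8, 20.1 and 22.6. The ranges did not overlap and the ratio of the group means was 1.53, but the fitted Log2FC of 0.35 (SE 0.18, FDR = 0.142) did not pass. At 8 days the Log2FC was 0.53 with an FDR of 0.0454, which met the FDR limit but not the limit on size, and D720 (29.4 CPM) lay within the rAAV-OVA range of 25.4 to 45.4. Without D720 the Log2FC was 0.62 and the FDR limit was missed (FDR = 0.0560). At 28 days Rela passed with a Log2FC of 0.70 (SE 0.18, FDR = 0.00516), from 38.8 ± 15.9 CPM in rAAV-OVA and 19.2 ± 1.06 in rAAV-control mice. This call stood close to the limit. The Log2FC was 0.95 without D844, 0.59 without the rAAV-OVA mouse D661 and 0.58 without the rAAV-control mouse D851, the last 2 under 0.66.

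Of the noncanonical subunits, Nfkb2 rose at 3 of 4 days and Relb at 2 of 4. Nfkb2 (ENSMUSG00000025225) encodes p100, which serves as an inhibitor until it is processed to p52. The rAAV-OVA mice at 5 days had 28.2, 23.8, 31.3 and 20.3 CPM and the rAAV-control mice 2.06, 4.79, 3.23 and 5.97. The lowest rAAV-OVA mouse was above 3 times the highest control. The fitted change was 4.04-fold (Log2FC 2.02, SE 0.48, FDR = 0.00289). The 8 day values were 57.5, 22.03, 24.9 and 36.5 CPM against 2.76, 13.1 and 4.18, where D720 had the middle value, and the Log2FC was 2.48 (SE 0.50, FDR = 0.00173), or 3.02 without D720. At 28 days the rAAV-OVA mice had 51.4, 22.9, 71.3 and 6.52 CPM, with D844 last, and the controls 3.96, 3.57, 2.89 and 2.88. Even D844 lay above all controls, and the Log2FC was 2.65 (SE 0.50, FDR = 0.000617), or 3.17 without D844. Nfkb2 had the largest Log2FC of the subunits at each of the 3 days. Without surrogate variables it was larger, at 2.67 at 5 days and 3.51 at 28 days.

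Relb (ENSMUSG00000002983), the partner of p52, had 17.99, 15.9, 19.1 and 17.2 CPM in rAAV-OVA mice at 5 days and 6.94, 7.86, 6.86 and 9.42 in controls. All 4 rAAV-OVA mice were above all 4 controls, and the group means were 17.5 ± 1.33 and 7.77 ± 1.19. The fitted Log2FC of 0.70 (SE 0.30, FDR = 0.0823) missed the FDR limit, whereas without surrogate variables it was 1.17 (FDR = 0.0108) and passed. Relb passed at 8 days with a Log2FC of 1.19 (FDR = 0.0110) and at 28 days with 1.39 (FDR = 0.00209). At 8 days its rAAV-OVA range was 12.8 to 28.5 CPM against 6.56 to 12.3 in controls. The 8 day call was lost without the rAAV-control mouse D722 (FDR = 0.183). At 28 days D844 had 5.62 CPM, within the control range of 4.94 to 6.24, and without it the Log2FC was 1.90, while without surrogate variables it was 2.01.

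**Figure D2:**
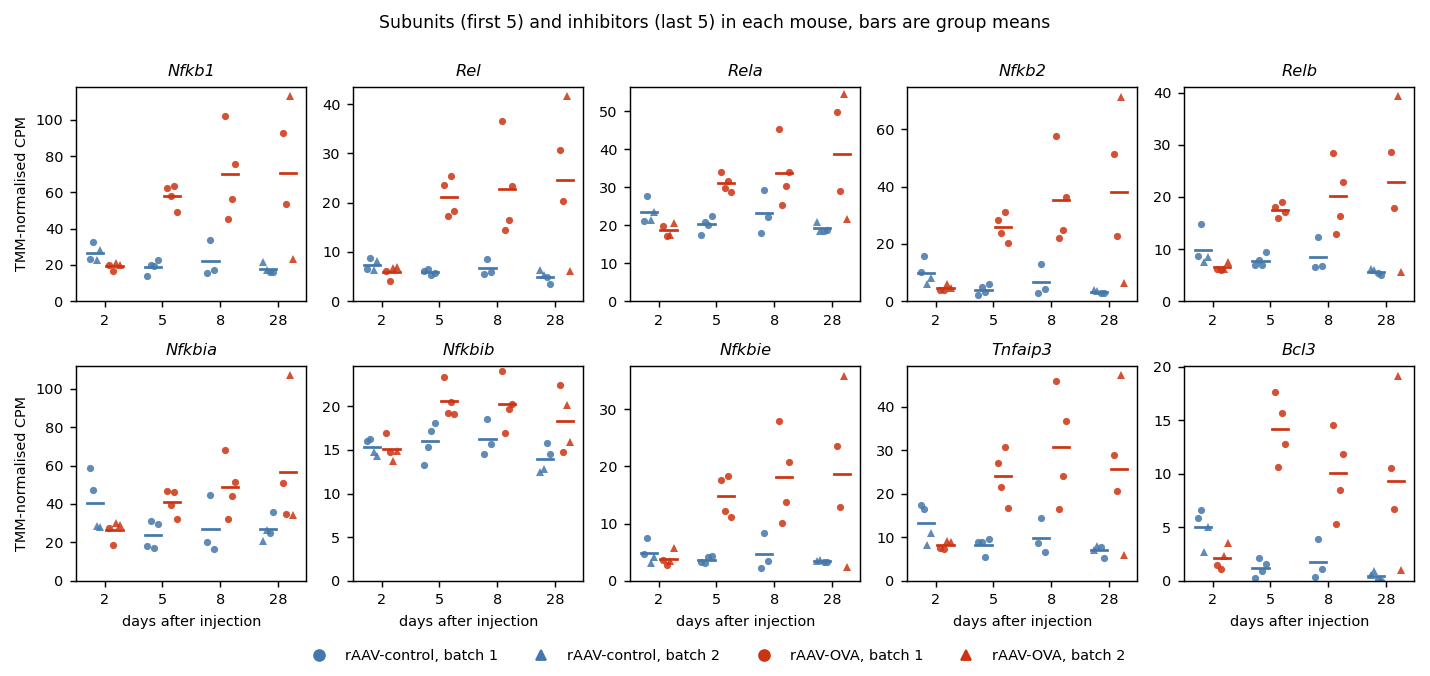
TMM-normalised CPM (vertical axes, linear, from 0) of the 10 members in each mouse at 2, 5, 8 and 28 days (horizontal axis), blue for rAAV-control and red for rAAV-OVA, circles for batch 1 and triangles for batch 2, with bars at the group means. At 5 days the groups did not overlap in any of the 10 panels, and at 28 days a single rAAV-OVA mouse (D844) lay near the controls in most panels.

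The IκB genes did not move alike. Nfkbia (ENSMUSG00000021025) encodes IκBα, the inhibitor of canonical dimers that is resynthesised fast after each round of activation. Its levels at 5 days were 46.6, 39.7, 46.3 and 32.1 CPM in rAAV-OVA and 18.1, 31.3, 16.99 and 29.3 CPM in rAAV-control mice. The ranges were just apart, by less than 1 CPM. The Log2FC was 0.51 (SE 0.36, FDR = 0.291). At 8 days D720 (44.5 CPM) lay in the middle of the rAAV-OVA values of 68.3, 31.9, 44.0 and 51.4, and the Log2FC was 0.86 (FDR = 0.105). Without D720, Nfkbia passed the test at 8 days with a Log2FC of 1.29 (FDR = 0.0431). At 28 days the values were 51.1, 34.6, 107 and 34.2 CPM against 20.6, 26.3, 24.7 and 36.02, the groups overlapped, and the Log2FC was 0.76 (SE 0.36, FDR = 0.105). Without surrogate variables the 28 day value was 1.08 (FDR = 0.0166), which passed. Nfkbia therefore passed at no day in the main model, but it did under some alternatives. At 5 days it passed with the mice of that day alone (0.80, FDR = 0.0149) and with batch 1 alone (0.79, FDR = 0.0459), and at 28 days also with the batch label, with surrogate variables from CPM and when only genes with 15 counts in each mouse were tested (0.92, FDR = 0.0278).

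Nfkbib (ENSMUSG00000030595), which encodes IκBβ, an inhibitor known for slower and weaker induction, stayed within a narrow band. Its levels were 23.4, 19.2, 20.5 and 19.1 CPM in rAAV-OVA and 13.3, 15.4, 17.1 and 18.1 in rAAV-control mice at 5 days. These groups did not overlap, but the distance was small. The Log2FC was 0.26 at 5 days (SE 0.13, FDR = 0.136), 0.28 at 8 days (FDR = 0.141) and 0.30 at 28 days (FDR = 0.0832). Over all 31 mice Nfkbib stayed between 12.5 and 24.02 CPM. None of the settings tried brought Nfkbib past both limits at any day.

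Nfkbie (ENSMUSG00000023947), which encodes IκBε, a late feedback inhibitor, rose at 5, 8 and 28 days. The rAAV-OVA mice at 5 days had 17.6, 12.2, 18.3 and 11.2 CPM against 3.36, 3.14, 4.08 and 4.25 in controls. The fitted change was 2.45-fold (Log2FC 1.29, SE 0.42, FDR = 0.0243) while the ratio of the means was 3.99, and without surrogate variables the Log2FC was 1.99. The 8 day values were 27.8, 10.1, 13.8 and 20.8 CPM against 2.26, 8.43 and 3.42, and the Log2FC was 1.96 (SE 0.45, FDR = 0.00400). The 28 day values were 23.5, 12.8, 35.8 and 2.48 CPM, where D844 came last and lowest, against 3.43, 3.57, 3.22 and 3.34 in controls. D844 was below all 4 controls, the Log2FC was 1.54 (FDR = 0.0107), and without D844 it was 2.11 (FDR = 0.00107). Without surrogate variables the 28 day value was 2.46, and within batches it was 2.48 in batch 1 and 2.44 in batch 2, where it did not pass. The 5 day call was lost without the rAAV-OVA mouse D786 (FDR = 0.116) or the rAAV-control mouse D724 (FDR = 0.0807), the 8 day call without D722 (FDR = 0.0821) and the 28 day call without D851 (FDR = 0.0532).

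Tnfaip3 (ENSMUSG00000019850) encodes A20, the ubiquitin-editing enzyme that ends signalling from TNF and Toll-like receptors. It stood at 27.1, 21.5, 30.7 and 16.7 CPM in rAAV-OVA and 8.86, 8.88, 5.56 and 9.60 CPM in rAAV-control mice at 5 days. All rAAV-OVA mice were above all controls. It rose 2.10-fold at 5 days (Log2FC 1.07, SE 0.35, FDR = 0.0242), with a Log2FC of 1.52 at 8 days (FDR = 0.00682) and 1.22 at 28 days (FDR = 0.0142). Its group means were 30.8 ± 13.2 against 9.88 ± 4.03 CPM at 8 days, and 25.7 ± 17.2 against 7.004 ± 1.31 CPM at 28 days. The 28 day groups overlapped, with D844 at 5.90 CPM inside the control range of 5.13 to 7.94. The 28 day Log2FC was 1.68 without D844, 1.87 without surrogate variables, 1.94 in batch 1 alone and 1.82 in batch 2 alone, where it did not pass. At 8 days it was 1.60 without D720. The 5 day call was lost without D786, D724 or the rAAV-control mouse D745, where the FDR was 0.122, 0.0601 and 0.0598. The 8 day call was lost without D722 (FDR = 0.163), and the 28 day call without D661 (FDR = 0.0530).

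Bcl3 (ENSMUSG00000053175) encodes an IκB-like nuclear protein that binds p50 and p52 dimers, and it had the largest Log2FC of the members at 5, 8 and 28 days. The rAAV-OVA mice had 17.7, 10.6, 15.7 and 12.8 CPM at 5 days and the controls 0.268, 2.16, 0.927 and 1.54. Every rAAV-OVA mouse was at more than 4 times the highest control. The fitted change was 6.25-fold (Log2FC 2.64, SE 0.64, FDR = 0.00333), the ratio of the means was 11.6, and without surrogate variables the Log2FC was 3.50. The 8 day values were 14.5, 5.29, 8.47 and 11.8 CPM against 0.376, 3.85 and 1.07, with a Log2FC of 2.77 (SE 0.68, FDR = 0.00672). This value was 3.44 without D720 and 2.03 without the rAAV-control mouse D696, and the call was lost without D722 (FDR = 0.101). At 28 days the rAAV-OVA mice had 10.6, 6.66, 19.1 and 1.03 CPM and the controls 0.577, 0.922, 0.183 and 0. The highest control stood at 0.922 and the lowest rAAV-OVA mouse, D844, at 1.03 CPM, so the groups were apart by a small step. Bcl3 had 0 counts in the rAAV-control mouse D706 and its size at 28 days varied with the model. The Log2FC was 3.32 (SE 0.72, FDR = 0.00157), 4.44 without surrogate variables and 4.04 by limma's voom.

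Counted over members, 6 of 10 passed at 5 days. The count was 7 of 10 at 8 days and 8 of 10 at 28 days, and each of them was higher in rAAV-OVA mice. Of all 15648 genes, 9.56% passed with a higher level at 5 days, 9.36% at 8 days and 12.7% at 28 days. Among the subunits 3, 4 and 5 of 5 passed at these days, and among the inhibitors 3 of 5 at each. The inhibitors that passed were Nfkbie, Tnfaip3 and Bcl3 at all 3 days. The median Log2FC of the members was 1.141, 1.58 and 1.43, against −0.012, −0.030 and 0.012 over the 15648 genes. The groups did not overlap in 10 of 10 members at 5 days (21% of all genes were higher in this way), 7 of 10 at 8 days (14.4%) and 4 of 10 at 28 days (15%). Without D720, 8 members and 1683 of all genes passed at 8 days, and 10 of 10 members did not overlap, against 24.8% of all genes higher in this way. Without the rAAV-control mouse D722, 3 members passed at 8 days (Nfkb1, Rel and Nfkb2), when 505 instead of 1556 genes passed overall. Without D844, 8 members passed at 28 days, as did 2296 instead of 2750 of all genes, and 8 members did not overlap, against 24.03% of all genes. Without the high rAAV-OVA mouse D845 instead, 8 members and 2492 of all genes passed at 28 days, and 4 members did not overlap, against 15.7%. D720 and D844 were picked by the levels of the members, so the separation without them is a description.

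**Figure D3:**
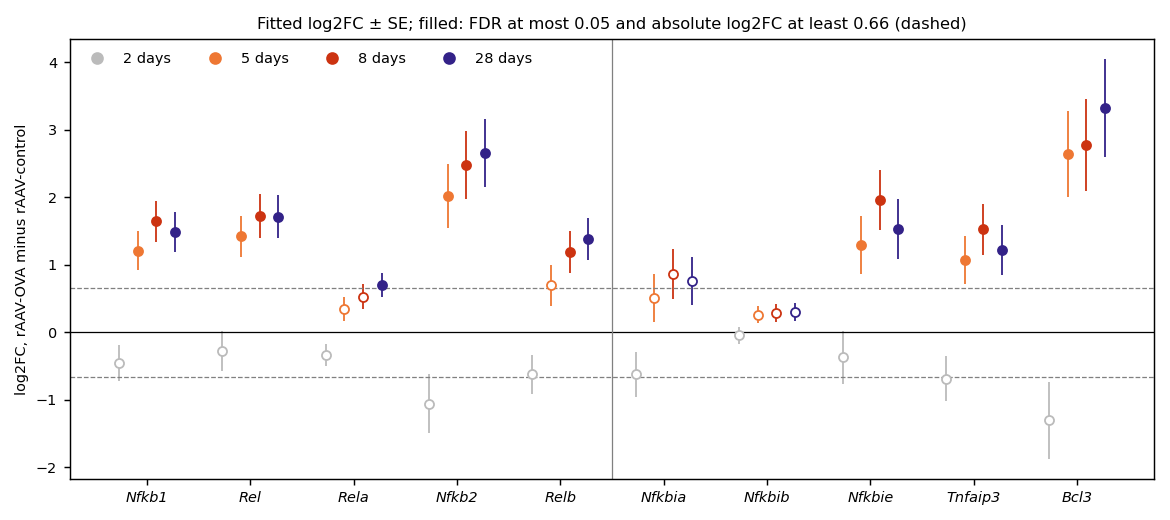
Fitted Log2FC of rAAV-OVA minus rAAV-control with its SE (vertical axis) for the 10 members at 2, 5, 8 and 28 days, with filled points for those that passed the test and dashed lines at the limit of 0.66. All 30 values at 5, 8 and 28 days were above 0 and all 10 at 2 days below 0.

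At 2 days no member passed in edgeR's test, and 0% of all genes did. With an unadjusted p under 0.05 there were 4 members in edgeR, 4 in DESeq2 and 2 in limma's voom, and over all genes 1428, 1522 and 1418. DESeq2 passed 10 genes and voom 0, members not among them. All 10 Log2FC values lay below 0, from −1.30 for Bcl3 to −0.045 for Nfkbib, and 3 members (Nfkb1, Rela and Nfkb2) did not overlap between groups, against 1.94% of all genes lower in this way. Nfkb2 stood at 4.02, 3.91, 5.91 and 4.70 CPM in rAAV-OVA and 10.1, 15.7, 6.07 and 7.95 in rAAV-control mice. Nfkb1 stood at 19.96, 16.7, 20.9 and 20.2 against 23.4, 32.9, 22.6 and 28.1 CPM, and Rela at 19.7, 17.1, 17.5 and 20.6 against 21.2, 27.7, 21.5 and 23.4 CPM. The first 2 controls in each list were D740 and D743 of batch 1, and D743 was the highest control in 8 of 10 members. These 2 mice also had 9.93 and 28.3 CPM of S100a8, the only neutrophil marker in the table (1 of 6 listed), against at most 1.47 CPM in the other 6 mice of that day, and D743 had 141 CPM of monocyte markers against 44.1 to 55.4 in the other controls. Within batch 1 the Log2FC ran from −2.33 to −0.026, and within batch 2 from −0.39 to 0.33, where Nfkbia (0.072) and Nfkbie (0.33) lay above 0. Without D743 no member passed. The part of these cell markers in the 2 day values was not tested.

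The 28 day response was also read within batches. In batch 1 alone, 8 members and 2341 of all genes passed, with a Log2FC of 2.20 for Nfkb1, 3.69 for Nfkb2, 1.09 for Rela and 6.37 for Bcl3. In batch 2 alone, with 2 mice against 2 and D844 among them, 0 members and 402 of all genes passed in edgeR's test, 6 members and 4621 of all genes had an unadjusted p under 0.05, and all 10 Log2FC values were above 0, from 0.50 for Nfkbib to 3.73 for Bcl3. Nfkbia was at 0.51 in batch 1 and 1.58 in batch 2.

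The response was then compared between days by interaction terms in the same model. At an FDR of at most 0.05, 0 of 10 members had a response that differed from 5 to 8 days in edgeR's test, where 0.192% of all genes had one. From 8 to 28 days it was 0 of 10 and 0% of all genes, and from 5 to 28 days 0 of 10 and 9.63% of all genes. No member had an unadjusted p under 0.05 in any of these, nor by DESeq2 or voom, where edgeR gave 1140, 2521 and 4236 of all genes. With batch 1 alone 2 members had one from 8 to 28 days and 2 from 5 to 28 days, against 1056 and 2010 of all genes. With surrogate variables estimated from CPM it was again 2 and 2, against 3344 and 4368 of all genes, and none passed. All 10 fitted responses were larger at 8 than at 5 days, but 6 of 10 were smaller without surrogate variables, so no direction from 5 to 8 days is given. From 5 to 28 days all 10 were larger later in the main model, by DESeq2, by voom, without surrogate variables, with the batch label and with surrogate variables from CPM, and 2 of 10 were smaller with batch 1 alone. The intervals were wide, as for Nfkb1, whose Log2FC at 8 days minus that at 5 days was 0.43 (95% interval −0.36 to 1.23), and for Relb at 28 minus 5 days, with 0.69 (−0.077 to 1.45, FDR = 0.260). Nfkbib was the tightest, with 0.036 (−0.30 to 0.37) between 5 and 28 days. A missed threshold does not show that the responses were equal.

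The rAAV-OVA mice of 8 and 28 days differed widely from each other. At 5 days the rAAV-OVA SD of Nfkb1 was 6.49 CPM at a mean of 58.2, at 8 days 24.9 at a mean of 70.1, and at 28 days 40.2 at a mean of 70.8. At 8 days D700 was the highest rAAV-OVA mouse and D701 the lowest in 10 of 10 members, against 38.1% and 36.8% of all genes, and at 28 days D845 was the highest in 9, against 27.3%. The T cell, monocyte and microglia markers gave the same mice as highest and lowest at 8 days. The B cell markers were highest in D700 but lowest in D702, and the neutrophil marker was highest in D703. D700 had 589 CPM of T cell and 680.1 CPM of monocyte markers, and D701 181 and 187 CPM, and the part of these cells in the spread was not tested.

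Counts of one member per count of another were compared within mice, where library scaling drops out. At 5 days the 4 rAAV-OVA mice had 0.442 ± 0.0394 counts of Nfkb2 per count of Nfkb1, and the controls 0.205 ± 0.0576, with ranges of 0.410 to 0.493 and 0.147 to 0.265. At 8 days the ratios were 0.491 ± 0.0507 and 0.268 ± 0.106, and at 28 days 0.472 ± 0.153 and 0.187 ± 0.0114. The groups did not overlap at any of these 3 days. Every rAAV-OVA mouse thus held more of the noncanonical precursor per count of the canonical one than every control of its day. At 2 days the ratio was 0.238 ± 0.0337 in rAAV-OVA and 0.365 ± 0.105 in rAAV-control mice, and the groups overlapped. Relb per Rela was 0.566 ± 0.0399 against 0.383 ± 0.0322 at 5 days and 0.585 ± 0.0753 against 0.363 ± 0.0567 at 8 days, again without overlap. At 28 days it was 0.543 ± 0.199 against 0.296 ± 0.0260, and D844, at 0.260, lay just below the control range of 0.262 to 0.325. At 2 days Relb per Rela was 0.346 ± 0.0237 against 0.414 ± 0.0824, with overlap.

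Relative to Nfkb1, Nfkbia was lower in rAAV-OVA mice of 5 and 8 days. There were 0.703 ± 0.0438 counts of Nfkbia per count of Nfkb1 in rAAV-OVA mice at 5 days and 1.26 ± 0.294 in controls, and 0.705 ± 0.0503 against 1.18 ± 0.204 at 8 days. The groups did not overlap at either day but did at 28 days, when the ratios were 0.902 ± 0.413 and 1.56 ± 0.527. Within batch 1 the log2 difference at 28 days was −1.65 without overlap, and within batch 2 it was −0.031. Nfkbia per Rela overlapped at all 4 days, with 1.32 ± 0.148 against 1.17 ± 0.290 at 5 days, but the 2 batches went opposite ways. The log2 difference was −0.53 in batch 1 and 0.57 in batch 2 at 28 days, and −0.82 and 0.31 at 2 days, each from 2 mice against 2 that did not overlap. Nfkbib per Rela was 0.662 ± 0.0208 against 0.789 ± 0.0505 at 5 days, with the rAAV-OVA mice all lower, and overlapped at the other days. Within each batch at 2 days it was higher in rAAV-OVA mice without overlap, with a log2 difference of 0.37 in batch 1 and 0.22 in batch 2. At 28 days it was −0.76 without overlap in batch 1 and −0.30 with overlap in batch 2. Tnfaip3 per Nfkb1 was 0.407 ± 0.0647 and 0.449 ± 0.142 at 5 days and overlapped at every day. Within batches at 2 days its log2 difference was −0.59 in batch 1 and 0.22 in batch 2, and that of Nfkbia per Nfkb1 −0.62 and 0.36, all without overlap.

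**Figure D4:**
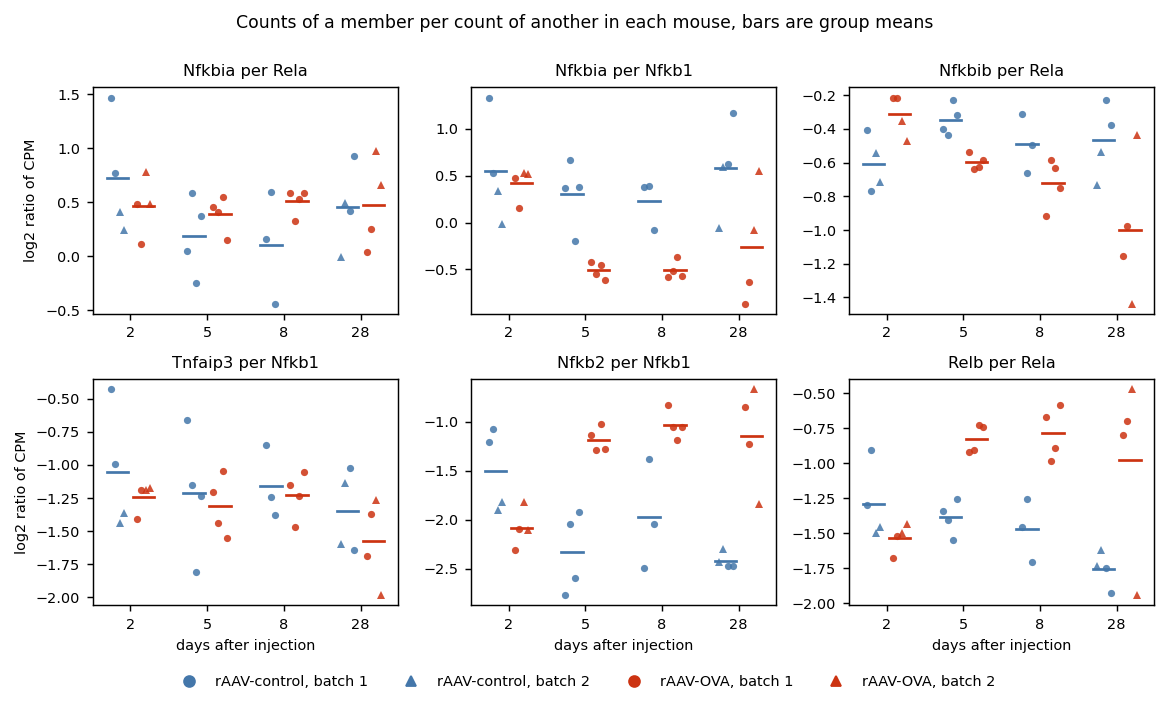
Log2 ratio of the CPM of 2 members (vertical axes) in each mouse by day, coloured by vector and shaped by batch, with bars at the group means. Nfkb2 per Nfkb1 was higher in all rAAV-OVA mice than in all controls at 5, 8 and 28 days, while Tnfaip3 per Nfkb1 and Nfkbia per Rela overlapped at all 4 days.

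Averaged on a log2 CPM scale with a prior count of 2, subunits and inhibitors had differences between the vectors of similar size. The subunit mean was 4.80 ± 0.17 in rAAV-OVA and 3.21 ± 0.25 in rAAV-control mice at 5 days, a difference of 1.60. The inhibitor mean was 4.39 ± 0.27 and 2.71 ± 0.37, a difference of 1.68. At 8 days the differences were 1.55 for subunits and 1.56 for inhibitors, and at 28 days 1.88 and 1.80. The subunit mean minus the inhibitor mean differed between the vectors by −0.082 at 5, −0.015 at 8 and 0.081 at 28 days, each less than the SD between mice, and the groups overlapped at all days. At 2 days this difference was 0.037, with 0.30 in batch 1 and −0.23 in batch 2, each without overlap. Within the inhibitors the Log2FC at 5 days spanned 0.26 for Nfkbib to 2.64 for Bcl3, a split that the averages do not show. The ratio of the group means at that day was 11.6 for Bcl3. It was 1.72 for Nfkbia, 1.29 for Nfkbib, 3.99 for Nfkbie and 2.92 for Tnfaip3. The similar size of the averages thus leans on Bcl3, and averages without it were not taken.

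The 8 groups were ordered by level for each member. The rAAV-OVA groups at 5, 8 and 28 days held the top 3 places in all 10 members. For Nfkb1, Rel, Rela, Nfkb2, Relb and Nfkbie the order was 28, 8 and 5 days, followed by a step to the rAAV-control group at 2 days. That step was the only pair of neighbouring groups whose mice did not overlap. Nfkbia had the same order without any such step, with 41.2 ± 6.85 CPM in rAAV-OVA mice at 5 days and 40.7 ± 15.2 in rAAV-control mice at 2 days. Tnfaip3 was led by 8 days (30.8 ± 13.2 CPM), and Bcl3 by 5 days (14.2 ± 3.11) followed by 8 (10.03 ± 4.02) and 28 days (9.34 ± 7.59). Nfkbib was also led by 5 days, at 20.6 ± 1.998 CPM. All neighbours within the top 3 overlapped. The rAAV-control group at 2 days followed next in 9 of the 10 members, the exception being Nfkbib.

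Levels between members were compared per kilobase of the longest coding transcript in GENCODE M21. In rAAV-control mice at 5 days Nfkbia was the highest, at 15.2 ± 4.70 CPM per kb, followed by Nfkbib at 7.76 ± 1.03, Rela at 7.45 ± 0.765, Nfkb1 at 4.60 ± 0.866 and Relb at 3.52 ± 0.538. Rel and Bcl3 were lowest, at 0.794 ± 0.0744 and 0.661 ± 0.438 CPM per kb. In rAAV-OVA mice at 5 days Nfkbia remained the highest, at 26.1 ± 4.34, while Nfkb1 (14.1 ± 1.58) stood above Rela (11.4 ± 0.838) and Nfkbib (9.99 ± 0.969). Bcl3 reached 7.67 ± 1.68 CPM per kb, near Relb (7.94 ± 0.602) and Nfkb2 (6.74 ± 1.26), and Rel was then the lowest, at 2.84 ± 0.536. The transcript in use can be shorter than the longest, so this order is approximate.

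The rest of the pathway is given from lists that were compiled by hand with results of these data known, so their counts are descriptions. The deposited table holds genes with 15 or more counts in at least 15 mice. All 10 members met this in the 19 mice outside the rAAV-OVA groups of 5, 8 and 28 days, whereas 1 of 20 adaptors, 2 of 11 canonical ligands and receptors (Tnf and Il1b), 3 of 8 noncanonical ones (Ltb, Tnfrsf14 and Cd40) and 2 of 16 targets (Ccl2 and Saa3) met it only together with those groups. Such genes had to be high there to be in the table, so they are left out of the counts that follow, and for those named only levels are given, as a description. Outside those groups Ltb reached 15 counts in 3 and Tnf in 7 of 19 mice. Of 12 kinases, 6 passed at 5 days and again 6 at 8 days, then 4 at 28 days, each with a higher level in rAAV-OVA mice. Ikbke, an inducible IκB kinase relative, was at 7.89 ± 2.18 against 1.20 ± 0.765 CPM at 5 days (Log2FC 1.96, FDR = 0.0167), and its Log2FC was 2.90 and 2.98 at 8 and 28 days. Ripk1, the kinase of the TNF receptor complex, rose with a Log2FC of 1.23, 1.46 and 1.17 at the 3 days. Map3k14, which encodes NIK, the kinase of the noncanonical branch, was at 11.3 ± 0.808 against 4.37 ± 1.47 CPM at 5 days (Log2FC 1.09, FDR = 0.00513). Irak4, a kinase of interleukin-1 and Toll-like receptors, had a Log2FC of 1.60 at 8 and 1.56 at 28 days. Of the core IκB kinase genes, named here after their values were seen, Chuk passed at 5 and 8 days, whereas Ikbkb (Log2FC 0.42 at 5 days) and Ikbkg (0.18) passed at none.

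Among the other 19 adaptors and ubiquitin enzymes, 6 passed at 5 days and 7 at each of 8 and 28 days, all higher. Traf1 and Birc3, adaptors of TNF receptors and themselves known targets of the pathway, rose at all 3 days. Traf1 was at 11.6 ± 3.51 against 1.19 ± 0.441 CPM at 5 days (Log2FC 2.65), and Birc3 at 17.4 ± 4.57 against 1.90 ± 0.802 (Log2FC 2.55). At 28 days their Log2FC was 3.92 and 2.55.

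Of 15 other brakes in the table (16 listed), 3 passed higher and 1 lower at 5 days, 5 higher at 8 days and 4 higher at 28 days. Zc3h12a, an RNase that degrades inflammatory mRNAs, had 6.10 ± 1.81 against 1.08 ± 0.522 CPM at 5 days (Log2FC 2.10, FDR = 0.00376). The nuclear IκB genes Nfkbid and Nfkbiz had a Log2FC of 1.42 and 1.22 at 5 days, and Nfkbiz did not pass at 28 days (0.17). Irak3, a brake on Toll-like receptors, passed at 8 days (1.75) and 28 days (1.44, FDR = 0.0496). Pdlim2, whose product promotes degradation of RelA, passed lower at 5 days, with 11.5 ± 1.41 against 16.8 ± 3.66 CPM in controls (Log2FC −0.91, FDR = 0.0152). Its groups overlapped at that day, and at 8 days its Log2FC was 0.045.

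Of the 9 other ligands and receptors of the canonical branch (12 listed), 5 passed at each of 5, 8 and 28 days, all higher. Il1rap was lower at 28 days without overlap, with 42.0 ± 8.77 against 57.3 ± 4.79 CPM. Its Log2FC of −0.62 (FDR = 0.000825 in edgeR's test) missed the limit on size. Map3k7, Tab3 and Nkrf of the other lists were also lower without overlap at 28 days and did not pass. These genes were named after their values were seen. The receptor gene Tnfrsf1b, mainly expressed by immune cells, was at 86.6 ± 17.9 against 8.66 ± 3.94 CPM at 5 days (Log2FC 2.57 at 5, 2.90 at 8 and 2.76 at 28 days). Tlr2, a receptor for bacterial lipoproteins, was at 39.2 ± 28.02 against 2.38 ± 1.05 CPM at 28 days (Log2FC 2.99, FDR = 0.00684). As levels alone, Il1b had 21.7 ± 14.3 CPM in rAAV-OVA against 0.551 ± 0.362 in rAAV-control mice at 5 days and 1.42 ± 1.05 against 0.139 ± 0.0597 at 28 days, and Tnf had 5.003 ± 3.03 against 0.106 ± 0.133 CPM at 5 days. Of the 5 other noncanonical ligands and receptors (13 listed), 4 passed at 5 days, 1 at 8 days and 4 at 28 days, each with a higher level. Tnfsf13b, which encodes the cytokine BAFF, passed at all 3 days with a Log2FC of 2.12, 1.89 and 1.67, and Tnfrsf12a, the receptor of TWEAK, at 5 days with 2.97. Both were named after their values were seen. As levels alone, Cd40 was at 8.76 ± 3.43 against 0.468 ± 0.235 CPM at 5 days. Ltb, the lymphotoxin β made by lymphocytes, had 5.33 ± 1.73 against 0.297 ± 0.162 CPM at 5 days and 19.03 ± 14.97 against 0.128 ± 0.0990 CPM at 28 days.

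Of the 14 other textbook target genes (20 listed), 9 passed higher at 5 days and 6 at 8 days, and at 28 days 8 passed higher and 1 lower. As a level alone, the chemokine gene Ccl2 was at 44.9 ± 17.9 against 0.835 ± 0.877 CPM at 5 days and 3.25 ± 2.22 against 0.305 ± 0.339 at 28 days. Ccl5, a chemokine also made by T cells, had a Log2FC of 3.44, 3.38 and 4.49, and Tnfaip2 of 3.17, 3.81 and 3.66. Bcl2a1b, a survival gene of leukocytes from a family of near-identical copies, had 3.40 at 28 days, and its counts are uncertain for that reason. Ptgs2, which encodes cyclooxygenase-2 and is also an activity-dependent gene of neurons, passed higher at 5 days (Log2FC 0.95) and lower at 28 days, with 10.7 ± 6.66 against 19.4 ± 4.30 CPM (Log2FC −1.37, FDR = 0.00364). At 2 days no gene of these 6 lists passed in edgeR's test.

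**Figure D5:**
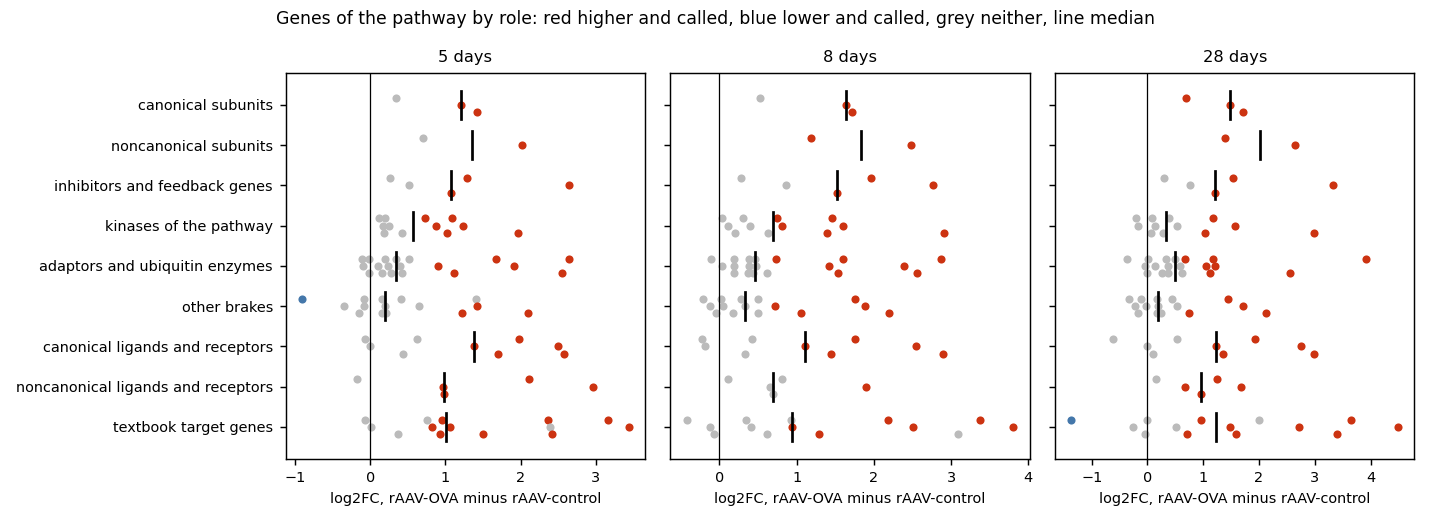
Fitted Log2FC (horizontal axis) of each gene by role at 5, 8 and 28 days, without the genes that met the count filter only together with the rAAV-OVA groups of these days, red for genes that passed higher, blue for those that passed lower and grey for the others, with a black line at the median of a list. The medians at 5 days ran from 0.19 for the other brakes to 1.38 for the canonical ligands and receptors, with the median of all genes at −0.012.

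The genes whose levels over the 8 groups were most like those of each member were taken by Pearson's r over the 8 group means of log2 CPM, among 14265 other genes with a mean of at least 1 CPM. The 8 points share 3 high groups, so high values are common, and between 98 genes (Nfkbia) and 988 genes (Nfkb2) had an r over 0.95. Closest to Nfkb1 were Syngr2 (r = 0.999) and Gm5641 (0.998), to Rel, Rab8a and Plcb2 (both 0.997), and to Rela, Fadd (0.997) and Lrp10 (0.995). For Nfkb2 they were Mcm3 (r = 0.9996) and Cmtm3 (0.998), and for Relb Csk and 4930579G24Rik (both 0.996). Nfkbia was closest to Cnppd1 (r = 0.982) and Manba (0.981), Nfkbib to Kcne1l (0.991) and Aaas (0.988), and Nfkbie to Gimap9 (0.998) and Fen1 (0.997). Tnfaip3 came next to Sla (r = 0.998) and Atad2 (0.997), and Bcl3 next to P2ry6 (0.997) and Fcer1g (0.996). Between the members themselves r ran from 0.715 for Nfkbia with Nfkbib to 0.995 for Rel with Nfkbie.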

How the data were processed

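RNA of the left hippocampus was sequenced paired-end on an Illumina NovaSeq system after TruSeq library preparation. The authors quantified transcripts with Salmon 1.8.0 on GENCODE M29, summed them to genes, dropped genes unless 15 or more mice had 15 or more counts, and tested them with DESeq2 1.36.0. The deposited tables hold these estimated counts as whole numbers, and both copies were identical (0 cells differed). Of the columns, 0 were left unused.

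The members and lists were chosen with earlier results of these data known. Counts were tested with edgeR 4.0.16 (quasi-likelihood, robust, TMM) in R 4.3.3, with terms for 8 groups and for 2 surrogate variables (sva 3.50.0), over all 15648 genes, after the scripts had been tested on simulated data. DESeq2 1.42.0 and limma 3.58.1 served as alternatives. Mice are separate animals, but 3 to 4 per group limit precision, and estimated counts carry errors of transcript assignment. From each pathway list the text names the 3 genes with the largest absolute Log2FC among those that passed at a day and every gene that passed lower. For each member it names the 2 genes most like it. The values of 1 gene that this rule names are not reported here. Transcript lengths and overlaps came from GENCODE M21 (GRCm38), since the lengths of M29 were not used here, and promoters from RefSeq (GRCm38.p6).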

Additional observations from a re-analysis of the deposited data

Results flagged for a closer look

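In 3 of the 70 member groups of 4 mice tested, 1 mouse lay far from the other 3 for the range of its group, where chance flags about 1 in 20, or 3.5 of 70. Rela stood at 20.7 CPM in the rAAV-control mouse D843 at 28 days, with the next mouse at 18.9 CPM. Relb stood at 7.60 CPM in the rAAV-OVA mouse BEC-B542 at 2 days, with the next at 6.18 CPM. Relb stood at 14.8 CPM in the rAAV-control mouse D743 at 2 days, with the next at 8.62 CPM, and D743 was also the mouse with the most S100a8 (28.3 CPM). Groups of 3 mice were not tested in this way, and the rAAV-control group at 8 days, which holds D720, is one.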

How the results depend on the processing

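Of 150 alternative counts of members, 147 stayed within 1.5 times the reported count and 3 did not. With the mice of 1 day fitted alone, 0 members passed at 8 days (9 had an unadjusted p under 0.05), where 0 of all genes passed. With batch 2 alone, 0 members passed at 28 days, where 402 of all genes did. Leaving out 1 mouse at a time gave 3 to 8 members at 8 days, 4 to 7 at 5 days, 6 to 8 at 28 days and 0 at 2 days. At 2 days the sign turned for Nfkbia (0.072) and Nfkbie (0.33) with batch 2 alone, and for Nfkbib when leaving out a mouse (−0.12 to 0.0043). Of the alternative Log2FC values, 717 kept direction and side of the threshold, 30 no longer passed, 15 newly passed and 4 turned sign. Of the alternative ratios and means, 50 moved by less than the spread between mice and 10 by more, the latter all within a batch: the inhibitor mean at 2 days (−0.57, in batch 1 −1.12, in batch 2 −0.018, chosen after seeing the data), Nfkbia per Rela at 2 and 28 days, Nfkbia per Nfkb1 at 28 days and Nfkb2 per Nfkb1 at 2 days (log2 difference −0.58, in batch 1 −1.06, in batch 2 −0.10). Without surrogate variables 7, 7 and 9 members passed at 5, 8 and 28 days (2733, 1274 and 3399 of all genes), and by limma's voom 5, 7 and 7 (2164, 1536 and 2739), without Tnfaip3 at 5 days (FDR = 0.0540) and Rela at 28 days. Surrogate variables from CPM, an alternative chosen after seeing the data, gave 7, 7 and 9 (2342, 1256 and 3354). A filter of 15 counts in every mouse left Bcl3 untested. No paired analysis was possible because the labels give no replicate numbers that link mice of different groups. Causes of these changes were not tested.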
